A study of Mus musculus with 22 samples.

Results

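The transcripts described here are those of 10 target genes of the tumour suppressor p53 (Trp53), measured in the lungs of mice instilled with multi-walled carbon nanotubes or with vehicle. The genes are Cdkn1a, Mdm2, Ccng1, Gdf15, Bax, Bbc3, Sesn2, Trp53inp1, Phlda3 and Gadd45a. They were found on the array through the RefSeq accession given for each probe, which picked 12 probes of 55681, for 10 of 20018 named genes. All 10 genes had an expressed probe. Female C57BL/6 mice, 8 weeks old at the start, received Mitsui7, a multi-walled carbon nanotube preparation, once by intratracheal instillation, and the right lung was taken 24 h later. The doses were 18 µg (6 mice), 54 µg (5 mice) and 162 µg (6 mice). The 5 control mice received the vehicle, saline with bronchoalveolar lavage fluid. No transgene or deletion was involved, and each array carried the RNA of a single mouse. Lung RNA carried the dye Cy5, and universal mouse reference RNA from 11 cell lines carried Cy3. A level below is thus the log2 of lung over reference signal, which can be compared between mice but not between genes.

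The protein p53 is held at a low level in unstressed cells because Mdm2, itself a p53 target, marks it for degradation. DNA damage and other stresses release this brake, and p53 then binds a pair of adjacent 10-base elements, called decamers here, near the genes it switches on. Cdkn1a encodes p21, an inhibitor of cyclin-dependent kinases that stops the cell cycle. Gadd45a acts in growth arrest and DNA repair. Bax and Bbc3 (Puma) promote apoptosis at the mitochondrion, Phlda3 restrains Akt signalling and Trp53inp1 takes part in autophagy and p53-dependent cell death. Sesn2 encodes a sestrin that senses leucine and limits mTOR signalling, and Gdf15 encodes a secreted cytokine that rises in many kinds of tissue stress. Several of these genes, among them Cdkn1a, Gdf15 and Sesn2, are also known to respond to signals other than p53.

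The bases before the transcription starts of the genes that changed are given first, because the decamer is the feature through which p53 recognises its targets. In RefSeq (GRCm38.p6), 9 of the 10 genes had a promoter window in the table used, with 13 windows in all. Trp53inp1 was not among them. The p53 decamer was searched in the 250 bases before each start. Its pattern is its own reverse complement, so 1 search covered both strands, and no other motif was searched. Capitals mark the decamers.
Cdkn1a, upstream start, chr17:29090729-29090978, plus strand: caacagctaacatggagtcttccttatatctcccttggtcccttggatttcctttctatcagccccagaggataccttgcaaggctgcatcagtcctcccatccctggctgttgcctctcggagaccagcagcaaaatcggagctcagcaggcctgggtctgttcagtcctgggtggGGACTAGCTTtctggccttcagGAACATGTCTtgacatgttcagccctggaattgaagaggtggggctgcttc
Cdkn1a, downstream start, chr17:29093519-29093768, plus strand: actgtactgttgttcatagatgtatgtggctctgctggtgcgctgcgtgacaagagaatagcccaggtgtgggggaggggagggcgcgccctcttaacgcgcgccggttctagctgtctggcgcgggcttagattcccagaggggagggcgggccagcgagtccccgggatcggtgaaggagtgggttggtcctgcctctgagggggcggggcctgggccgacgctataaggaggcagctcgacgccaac
Gdf15, upstream start, chr8:70632457-70632706, minus strand: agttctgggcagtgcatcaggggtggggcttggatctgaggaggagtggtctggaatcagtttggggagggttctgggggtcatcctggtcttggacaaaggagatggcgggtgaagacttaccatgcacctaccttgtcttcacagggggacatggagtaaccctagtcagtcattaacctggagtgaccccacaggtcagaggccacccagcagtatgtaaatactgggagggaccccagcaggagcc

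The window of the upstream Cdkn1a start held 2 decamers, whose first bases lay 73 and 51 bases before the start. They were not adjacent, as other bases lie between them. The search allowed no mismatch, so an imperfect decamer next to either would not be marked. The window of the downstream Cdkn1a start held 0, and so did both windows of Gdf15. A single decamer was found in the windows of 4 other genes, which are shown to let the matches be compared with those of Cdkn1a.
Mdm2, 186 bases before the start: GAACTTGCCT
Ccng1, 185 bases before the start: GGGCAAGCCT
Bax, 201 bases before the start: AGGCAAGCTT
Gadd45a, 40 bases before the start: GGGCTAGCCC

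No decamer was present in the windows of Bbc3, Sesn2 and Phlda3. In all, 5 of 13 windows held a decamer, against 7.13% of 32851 windows of the same length over all genes, and 0.259% of all windows held 2 or more. The match describes the letters in this window only. Whether p53 was bound there was not measured.

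The arrays lay on 7 slides, 2 of them without a control. The median Cy5 signal over local background ranged from 1.18 to 2.50 between arrays, and 52.1% to 83.5% of probes were above the negative controls. No probe of the 10 genes was saturated, and the brightest probe of each gene was well above background on all 22 arrays. Control replicate 2 stood apart. The mean log2 ratio of 7 neutrophil markers was 4.60 in this mouse and 1.86 to 2.45 in the other controls, and that of 4 monocyte markers was 3.02 against 0.83 to 1.14. Results of the 10 genes that rest on this mouse are therefore given with and without it. Fold changes of the cell type markers are given with it only.

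Of the 10 genes, the numbers called at the 3 doses were 2, 1 and 2. A gene is called where its probe changed by at least 1.5-fold at an adjusted p of at most 0.05 in limma, with dose and slide fitted together. Over all 16433 expressed named genes, 2.06% were called at 18 µg (0.633% higher, 1.43% lower), 0.353% at 54 µg (0.219% higher, 0.134% lower) and 6.85% at 162 µg (3.32% higher, 3.53% lower). The members called at 18 µg were Gdf15 (higher) and Trp53inp1 (lower). Gdf15 was called higher at 54 µg, and Gdf15 and Cdkn1a were called higher at 162 µg. The median log2 fold change of the 10 genes was -0.04, -0.04 and 0.17 at the 3 doses, beside -0.02, -0.01 and -0.01 over all expressed genes. Without control replicate 2 the counts were 1, 0 and 3.

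**Figure D1:**
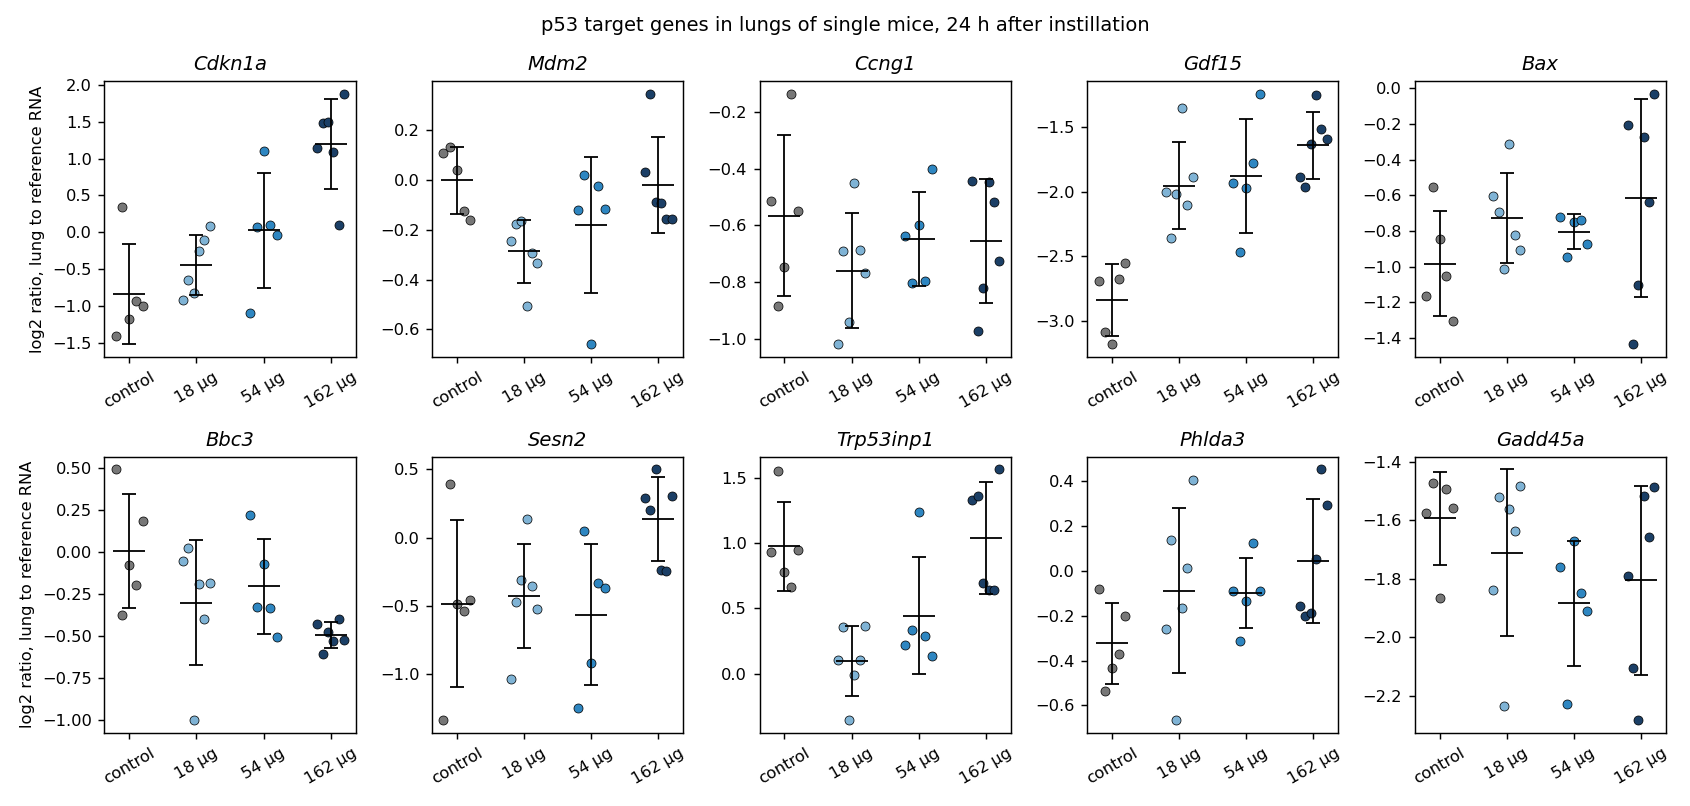
Log2 ratio of lung RNA to reference RNA (y axis) of the 10 p53 target genes in single mice, by dose (x axis). Each point is 1 mouse, the long bar the group mean and the whiskers 1 SD. The Gdf15 points of all exposed mice lie above the 5 controls, 5 of 6 Cdkn1a points at 162 µg lie above the highest control (0.34), and the Trp53inp1 points at 18 µg lie below the lowest control (0.67). The y axis differs between genes.

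Cdkn1a had the largest change of the 10 genes at 162 µg. The log2 ratios of the 5 control mice were -1.41, 0.34, -1.18, -0.94 and -1.004, with a mean of -0.84 ± 0.68 (SD, n = 5). At 162 µg they ran from 0.10 through a median of 1.31 to 1.88, with a mean of 1.20 ± 0.61 (SD, n = 6). Here 5 of 6 mice lay above every control and the sixth was below control replicate 2 alone. The slide-adjusted log2 fold change was 1.74 (standard error 0.31, limma adjusted p = 0.00296), a 3.34-fold rise. Without control replicate 2, which was the highest control for this gene, it was 2.03 (limma adjusted p = 0.00154).

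At the lower doses the Cdkn1a values of exposed and control mice overlapped. They ran from -0.92 to 0.08 at 18 µg, with a median of -0.45. At 54 µg the 5 mice had -1.10, 0.07, 1.10, 0.09 and -0.03, the widest spread of any dose (SD 0.78). The log2 fold change was 0.22 (95% interval -0.42 to 0.87, limma adjusted p = 0.804) at 18 µg and 0.74 (95% interval 0.06 to 1.43, limma adjusted p = 0.534) at 54 µg. The difference between the highest and the lowest dose was tested directly. Cdkn1a was higher at 162 µg than at 18 µg by 1.52 on the log2 scale (standard error 0.29, limma adjusted p = 0.00563), a 2.87-fold difference. Over all expressed genes, 4.98% were called in that comparison (3.33% higher, 1.65% lower). The steps from 18 to 54 µg (0.52, limma adjusted p = 0.605) and from 54 to 162 µg (0.996, limma adjusted p = 0.353) were not called, against a background of 0.0304% (0.0183% higher, 0.0122% lower) and 0% of all expressed genes.

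The Cdkn1a probe behind these values was printed in 10 spots per array, and the log2 ratios of the spots had an SD of 0.034 to 0.328 within an array, with a median of 0.079. A second, dim probe assigned to the gene was well above background on 11 of 22 arrays. Its log2 fold changes were 0.22, 0.01 and 0.14 at the 3 doses, and none was called.

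Gdf15 was higher than in controls at all 3 doses. Its control log2 ratios were -2.69, -3.08, -3.18, -2.68 and -2.55, a mean of -2.83 ± 0.28 (SD, n = 5). The 6 mice at 18 µg ran from -2.36 through a median of -2.01 to -1.36. The 5 mice at 54 µg had -1.94, -2.46, -1.98, -1.78 and -1.24, and the 6 at 162 µg ran from -1.96 through -1.62 to -1.26. The groups did not overlap with the controls at any dose: 6 of 6, 5 of 5 and 6 of 6 exposed mice had a higher ratio than every control. Over all expressed genes, every exposed mouse lay above every control for 1.41%, 1.51% and 3.71% of genes at the 3 doses.

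The log2 fold change of Gdf15 was 0.68 (standard error 0.13, limma adjusted p = 0.0226) at 18 µg, 0.77 (standard error 0.14, limma adjusted p = 0.0374) at 54 µg and 1.07 (standard error 0.13, limma adjusted p = 2.81e-04) at 162 µg. These are 1.60-fold, 1.70-fold and 2.10-fold rises. The doses share the control mice. The dose groups themselves overlapped, and Gdf15 at 162 µg exceeded that at 18 µg by 0.39 (95% interval 0.12 to 0.65, limma adjusted p = 0.0977), a difference that was not called. The size of the Gdf15 values depended on the scaling. When each array was centred on its median in place of loess, the median of all expressed genes moved to -0.26 at 18 µg and -0.19 at 162 µg, and the Gdf15 value at 162 µg became 0.74 (0.92 above that median, limma adjusted p = 0.307). At 18 µg it became 0.32 with median centring (0.59 above the median, limma adjusted p = 0.626) and 0.16 without normalization (0.58 above a median of -0.42, limma adjusted p = 0.872), so the call was lost in both. In these 2 settings 0 of all expressed genes were called higher at 18 µg. With loess, the call of Gdf15 at 18 µg was lost without control replicate 1 or 5 or 18 µg replicate 1 or 5 (0.61 to 0.73 over all mice left out in turn). At 54 µg it was lost on leaving out any of 15 of the 22 mice (0.65 to 0.88 over all mice left out in turn). There it was made only without 18 µg replicates 4, 5 or 6, 54 µg replicates 3 or 5, or 162 µg replicates 4 or 6.

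**Figure D2:**
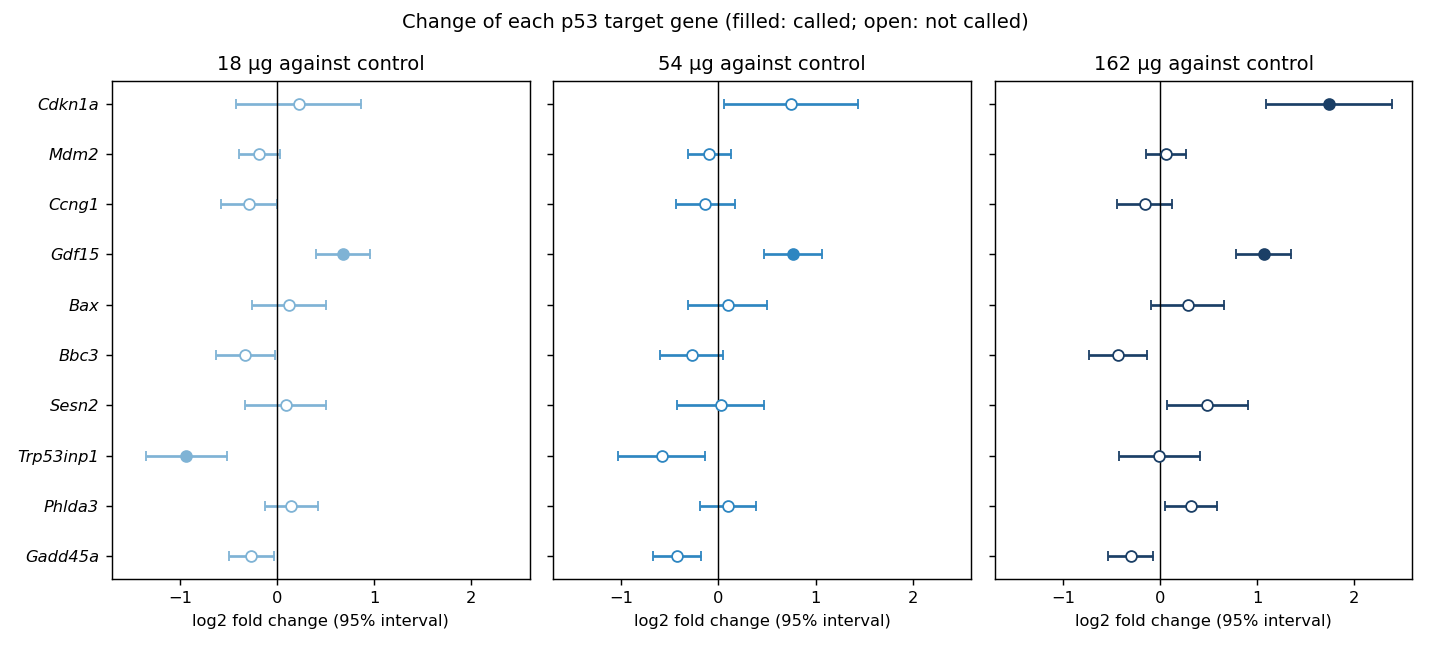
Log2 fold change against control (x axis) of the 10 p53 target genes (y axis) at 18, 54 and 162 µg, from limma with dose and slide. Points are estimates, bars their 95% intervals, and filled points were called. Gdf15 is filled in all 3 panels, Cdkn1a at 162 µg (1.74) and Trp53inp1 at 18 µg (-0.93).

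Trp53inp1 was lower than in controls at the lowest dose, and its values at the highest dose overlapped those of the controls. The control log2 ratios were 0.93, 1.55, 0.78, 0.67 and 0.95 (mean 0.97 ± 0.34, SD, n = 5). The 6 mice at 18 µg ran from -0.35 through a median of 0.11 to 0.36, all below the lowest control. Over all expressed genes, every mouse at 18 µg lay below every control for 1.98%. The log2 fold change was -0.93 (standard error 0.20, limma adjusted p = 0.0309).

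At 54 µg the 5 values of Trp53inp1 were 0.22, 0.34, 1.24, 0.29 and 0.14. All but that of replicate 3 were below the controls, where every mouse lay below every control for 1.79% of all expressed genes. The log2 fold change was -0.59 (95% interval -1.03 to -0.14, limma adjusted p = 0.383). Without 54 µg replicate 3 it was -0.79 (limma adjusted p = 0.0291), and Trp53inp1 was then called at that dose. At 162 µg the values ran from 0.64 to 1.56 around a median of 1.01, and the log2 fold change was -0.01 (95% interval -0.42 to 0.41, limma adjusted p = 0.993). Trp53inp1 was higher at 162 µg than at 18 µg by 0.93 on the log2 scale (standard error 0.18, limma adjusted p = 0.00816).

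A second, dimmer probe of Trp53inp1 had log2 fold changes of -0.34, -0.31 and 0.13 at the 3 doses, and 0.47 between 162 and 18 µg (limma adjusted p = 0.0844), none of them called. Without control replicate 2, the highest control for this gene, the change at 18 µg was -0.87 (limma adjusted p = 0.0560) and was no longer called. It was also lost on leaving out any of 9 other mice: control replicates 1, 4 and 5, 18 µg replicates 1 to 5 and 54 µg replicate 2. Over all mice left out in turn the change was between -1.01 and -0.86.

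**Figure D3:**
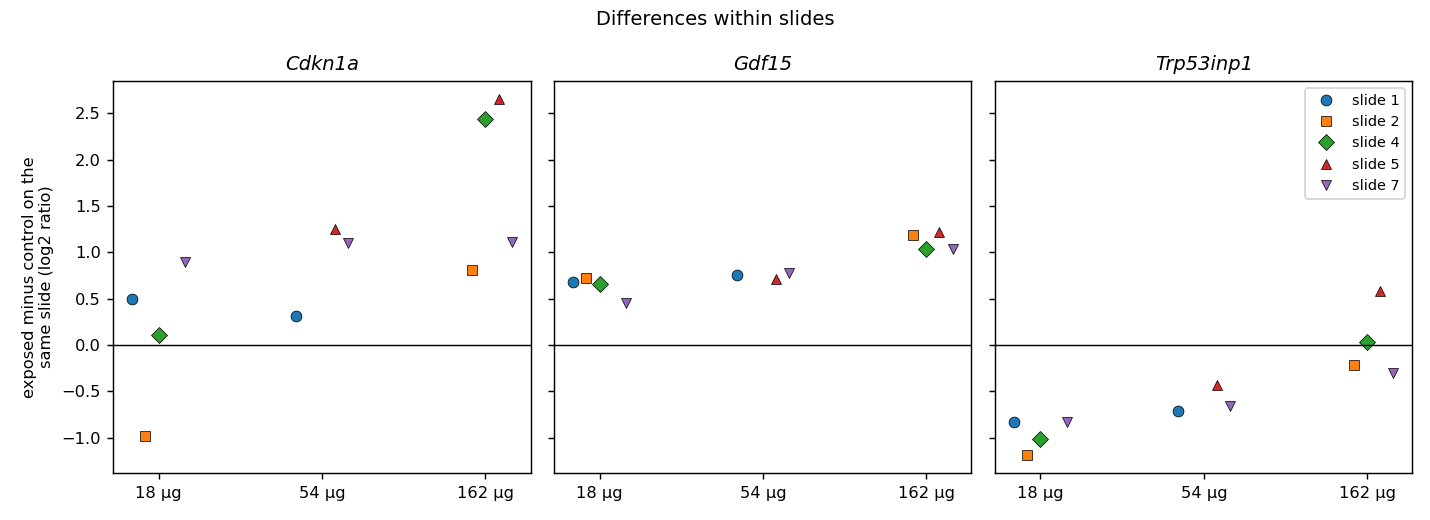
Log2 ratio of an exposed mouse minus that of the control mouse on the same slide (y axis) for Cdkn1a, Gdf15 and Trp53inp1 at each dose (x axis). Each symbol is 1 slide of the 5 that held a control. Gdf15 lies above 0 on every such slide, and at 162 µg between 1.04 and 1.22, while Cdkn1a at 162 µg spreads from 0.80 to 2.66.

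Because dose was spread over slides, an exposed mouse on a slide with a control could also be set against that control. This left out 18 µg replicates 4 and 6, 54 µg replicates 3 and 5 and 162 µg replicates 4 and 6. Of these, 54 µg replicate 3 had the highest Trp53inp1 at its dose (1.24). Gdf15 was higher than the control on 4 of 4 slides at 18 µg, 3 of 3 at 54 µg and 4 of 4 at 162 µg, by 0.45 to 0.72, 0.71 to 0.77 and 1.04 to 1.22. Cdkn1a was higher on 3 of 4, 3 of 3 and 4 of 4 slides. The exception at 18 µg was the slide of control replicate 2, where the difference was -0.99. Trp53inp1 was lower on 4 of 4 slides at 18 µg (-1.19 to -0.83) and 3 of 3 at 54 µg (-0.71 to -0.44), and at 162 µg it was higher on 2 of 4. Among the genes that were not called, Gadd45a was lower than the control on its slide in every case, on 4 of 4, 3 of 3 and 4 of 4 slides (-0.74 to -0.047, -0.36 to -0.19 and -0.79 to -0.099). Mdm2 was lower on 4 of 4 slides at 18 µg, and at 162 µg Bbc3 was lower and Phlda3 higher on 4 of 4. At 54 µg Ccng1 and Bbc3 were lower and Sesn2 higher on 3 of 3. These genes are named because they kept 1 sign on every slide. The share of all expressed genes that did so was not counted. The doses on a slide share its control mouse, so the comparisons are not independent.

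Gadd45a, the other arrest gene of the set, was not called. Its log2 fold changes were -0.26 (95% interval -0.49 to -0.03), -0.42 (95% interval -0.67 to -0.18) and -0.30 (95% interval -0.53 to -0.07), with limma adjusted p of 0.247, 0.187 and 0.124. The values of exposed mice ran from -2.28 to -1.48 and those of controls from -1.87 to -1.47, so the groups overlapped before any adjustment for slide.

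The feedback genes Mdm2 and Ccng1, whose products act back on p53, were not called at any dose. The log2 fold change of Mdm2 was -0.18 (95% interval -0.39 to 0.03), -0.09 (95% interval -0.32 to 0.13) and 0.06 (95% interval -0.15 to 0.27). At 18 µg, 6 of 6 mice had an Mdm2 ratio below every control, although the closest values of the groups both round to -0.16. Every mouse at this dose lay below every control for 1.98% of all expressed genes. The log2 fold change of Ccng1 was -0.29, -0.13 and -0.16, with exposed mice from -1.02 to -0.40 and controls from -0.88 to -0.13. At 162 µg the 95% interval for Ccng1 was -0.44 to 0.13.

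Among the apoptosis genes Bax, Bbc3 and Phlda3 none was called either. Bax had 0.12, 0.09 and 0.29, with 3 of 6 mice above every control at 162 µg and 1 below, and a 95% interval of -0.09 to 0.66. Phlda3 had 0.15, 0.09 and 0.32 (limma adjusted p = 0.181 at 162 µg), with 3 of 6 mice above every control at the highest dose. Bbc3 had negative values throughout, -0.33, -0.28 and -0.43. At 162 µg the 6 Bbc3 values lay between -0.61 and -0.40, below the control range of -0.37 to 0.50, and the difference had a limma adjusted p of 0.0911. For comparison, every mouse at 162 µg lay below every control for 4.48% of all expressed genes. Without control replicate 2, the lowest control for Bbc3, its change at 162 µg was -0.58 (limma adjusted p = 0.0217). It was then short of the fold threshold and still not called.

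Sesn2 had log2 fold changes of 0.09, 0.02 and 0.49 (95% interval 0.07 to 0.91 and limma adjusted p = 0.187 at 162 µg). The 5 control values were -1.34, 0.39, -0.48, -0.54 and -0.46, and control replicate 2 was again the highest. At 162 µg the values ran from -0.24 to 0.50. Without control replicate 2 the change at 162 µg was 0.69 (limma adjusted p = 0.0429), and Sesn2 was then the third gene called at that dose. Small values at 18 µg changed sign with the scaling: under median centring, which moved the median of all genes to -0.26, Cdkn1a, Bax, Sesn2 and Phlda3 had -0.16, -0.29, -0.24 and -0.27.

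Over the 22 mice, the gene of the set whose ratio followed Cdkn1a most closely was Sesn2 (Pearson r 0.68), followed by Trp53inp1 (0.53) and Gdf15 (0.50). Mdm2 had 0.05, and Bbc3 -0.56. These are descriptions over all mice, and dose, slide and control replicate 2 all enter them. Among 14976 expressed genes with a value on every array, the 5 whose ratios were most like those of Cdkn1a were Sema7a (0.93), Cdc42ep4 (0.92), Zbtb48 (0.92), Tspan11 (0.92) and Ppp1r21 (0.92). Sema7a encodes a membrane-anchored semaphorin and Cdc42ep4 an effector of the GTPase Cdc42. All 5 were called higher at 162 µg, with log2 fold changes of 0.70 to 1.23, where 3.32% of all expressed genes were. They were picked over the same mice, the 162 µg group included, so a rise at that dose follows in part from the choice. Genes among the most like Gdf15 were Tma16 (0.93), Hdac3 (0.91), Sprr1a (0.90) and Adamts4 (0.88). Sprr1a encodes a protein of the cornified envelope of squamous epithelium and Adamts4 an aggrecan-cleaving protease. At 162 µg the log2 fold change was 2.17 for Adamts4, 1.18 for Sprr1a and 0.62 for Hdac3, all called, and 0.48 for Tma16, which was not. The genes like Gdf15 were picked in the same way, so these values are not independent of the choice either.

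A list of 40 other p53 targets was examined, of which 39 were expressed. At 162 µg, 6 of 39 were called higher and 0 lower, where 3.32% of all expressed genes were called higher and 3.53% lower. At 54 µg 1 of 39 was called (0.353% of all genes), and at 18 µg limma called 0 of 39 (2.06% of all genes), with 17, 11 and 11 of 39 at an unadjusted p under 0.05 at 18, 54 and 162 µg. The shares of all expressed genes at an unadjusted p under 0.05 were 22.3%, 13.8% and 28.8%. The median log2 fold change of the list was -0.02, -0.03 and 0.06 at the 3 doses, and 27 of 39 genes were above 0 at 162 µg. With median centring, and also without any normalization, 0 of 39 were called at 162 µg and 12 of 39 were above 0. Over all expressed genes, 74 and 2 of 16433 were called higher at this dose in these settings, with medians of -0.19 and -0.21. With so few calls over all genes, the counts of 0 say little about the list. Without control replicate 4, 3 genes were called at 162 µg.

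Plk3, a stress-activated kinase, had the largest rise of this list. Its mean log2 ratio was -1.18 ± 0.25 (SD, n = 5) in controls. It rose to 0.092 ± 0.38 (SD, n = 6) at the highest dose, with -0.083 ± 0.30 (SD, n = 5) at 54 µg in between, and every mouse at the higher 2 doses lay above every control. The log2 fold change was 0.39 (limma adjusted p = 0.0795) at 18 µg, 0.83 (limma adjusted p = 0.0110) at 54 µg and 1.15 (limma adjusted p = 4.01e-05) at 162 µg. Epha2, an ephrin receptor, was called at 162 µg (0.85, limma adjusted p = 7.04e-04), where 6 of 6 mice lay above the controls. Sertad1, which binds cyclin-dependent kinase 4, had 0.81 at that dose (limma adjusted p = 9.39e-04), again with 6 of 6 mice above the controls. Over all expressed genes, every mouse lay above every control for 1.51% at 54 µg and 3.71% at 162 µg. The call of Plk3 at 54 µg was lost without control replicate 3 or 54 µg replicate 2 or 4 (0.78 to 0.91 over all mice left out in turn), and those of Plk3, Epha2 and Sertad1 at 162 µg were made with each mouse left out in turn. Of 15 other settings of the processing, 4 ended the call of Plk3 at 54 µg, and 2, 3 and 3 those of Plk3, Epha2 and Sertad1 at 162 µg.

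The other 3 genes called at 162 µg belong to apoptosis. Aen, an apoptosis-enhancing nuclease, had 0.73 (limma adjusted p = 0.0167) and 0.72 on its second probe (limma adjusted p = 0.0323). Pmaip1 (Noxa), a BH3-only protein like Bbc3, had 0.72 (limma adjusted p = 0.0368), and the death receptor gene Fas had 0.61 (limma adjusted p = 0.0132). These 3 calls depended on single mice and on the processing, and those of Aen, Pmaip1 and Fas were lost in 5, 4 and 7 of 15 other settings. That of Aen ended without control replicate 4 or 5 or 162 µg replicate 1, with values of 0.67 to 0.83 over all mice left out in turn. That of Fas ended without control replicate 1 or 4, 18 µg replicate 1 or 162 µg replicate 2 or 3 (0.51 to 0.70). That of Pmaip1 ended without control replicate 1, 3, 4 or 5 or 162 µg replicate 1, 2, 3 or 6 (0.59 to 0.86). The ranges of Fas and Pmaip1 are also over all mice left out in turn. Other members of the list, named after their values were seen, had smaller log2 fold changes at 162 µg: Ddb2 0.03, Zmat3 0.20, Btg2 0.01 and Sesn1 -0.25, none called.

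**Figure D4:**
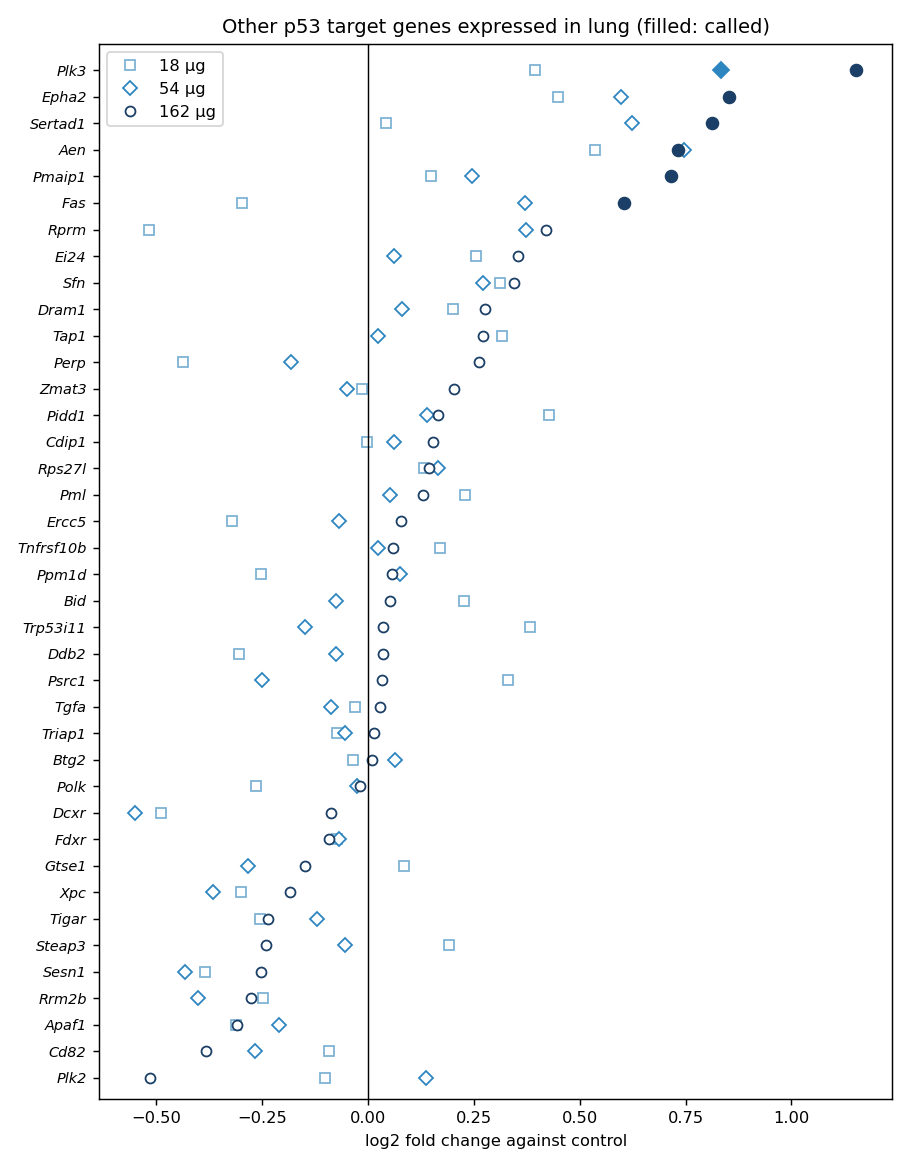
Log2 fold change against control (x axis) of 39 other p53 target genes expressed in lung (y axis, ordered by the value at 162 µg). Squares are 18 µg, diamonds 54 µg and circles 162 µg, and filled symbols were called. The 6 filled circles run from Fas (0.61) to Plk3 (1.15), Plk3 is also filled at 54 µg, and no square is filled.

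Between 162 and 18 µg, 4 of the 39 genes were called, all higher at 162 µg: Fas (0.90), Plk3 (0.76), Sertad1 (0.77) and Rprm (0.94), a gene of G2 arrest. The background in this comparison was 3.33% called higher. Trp53 itself, measured as transcript, was not called: its log2 fold change was 0.52 (limma adjusted p = 0.169), 0.22 and 0.38 (limma adjusted p = 0.289). Of 18 genes for p53 and its regulators, all expressed, 0 were called at 18 and 54 µg (2.06% and 0.353% of all genes). At 162 µg 1 of 18 was called, in the lower direction, beside 3.53% of all expressed genes. This gene was Trp53bp1, which binds damaged chromatin. Its log2 fold change at 162 µg was -0.64 on its brighter probe (limma adjusted p = 0.00179), and a second probe had -0.08.

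The p21 protein lowers many cell cycle genes through the DREAM repressor complex, so 16 such genes were examined, 14 of them expressed. At 18 µg, 14 of 14 were above 0 with a median log2 fold change of 0.65, and 2 were called higher, Ccna2 (0.94, limma adjusted p = 0.0374) and Cdk1 (0.84, limma adjusted p = 0.0459), beside 0.633% of all expressed genes. At 54 µg the median was -0.02 and at 162 µg 0.16, with 6 and 13 of 14 above 0 and 0 of 14 called at either dose in limma. At an unadjusted p under 0.05 the counts at the 3 doses were 13, 1 and 2 of 14. The calls at 18 µg were lost for Ccna2 on leaving out any of 11 mice and for Cdk1 any of 15. They were also lost in 8 and 9 of 15 other settings of the processing. Over all mice left out in turn the values were 0.77 to 1.06 for Ccna2 and 0.69 to 0.98 for Cdk1. Without normalization 8 of 14 were above 0 at 18 µg, and with median centring 12 of 14 were, with 0 called in both. In either setting 0 of all 16433 expressed genes were called higher at 18 µg, so these counts of 0 say nothing about the list. With median centring the median of the list at 162 µg was -0.13, beside -0.19 over all expressed genes. Cdk1 had 2 dimmer probes, 1 of them not expressed, with 0.28 and 0.04 at 18 µg, neither called. A lower level at 162 µg than at 18 µg was called for 2 of 14, Ccna2 (-0.80) and Bub1 (-0.79), beside 1.65% of all expressed genes.

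Gdf15 and Sesn2 are also targets of the integrated stress response, in which Atf4 and Ddit3 (Chop) switch on genes of amino acid supply. Of 17 expressed genes of a list for this response, 1 was called at 18 µg, 0 at 54 µg and 4 at 162 µg, all higher, beside 0.633%, 0.219% and 3.32% of all expressed genes. At an unadjusted p under 0.05 the counts were 11, 4 and 7 of 17. Psat1, an enzyme of serine synthesis, was called at 18 µg (0.81, limma adjusted p = 0.0222) and 162 µg (1.07, limma adjusted p = 7.27e-04), and every exposed mouse lay above every control. The shares of all expressed genes with such a separation were 1.41%, 1.51% and 3.71% at the 3 doses. At 162 µg the amino acid transporter chain Slc3a2 had 1.10 (limma adjusted p = 0.00786), its partner Slc7a5 0.68 (limma adjusted p = 0.0107) and the mTOR inhibitor Ddit4 1.31 (limma adjusted p = 0.0338). A second probe of Slc7a5 had -0.44. The call of Psat1 at 18 µg was lost on leaving out any of 5 mice and that of Ddit4 any of 8. Over all mice left out in turn the values were 0.68 to 0.91 for Psat1 and 1.04 to 1.74 for Ddit4. In other settings of the processing, 5 of 15 ended the call of Psat1 at 18 µg, and at 162 µg 6 ended that of Ddit4, 6 that of Slc7a5, 3 that of Slc3a2 and 2 that of Psat1. The transcription factor genes, named after their values were seen, were not called at 162 µg: Atf4 had 0.52, short of the fold threshold, Atf3 0.32 and Ddit3 0.18. With median centring 0 of 17 were called at 162 µg, where only 74 of all 16433 expressed genes were called higher.

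Paralogs and family members of the 10 genes formed the last list, with 15 of 16 expressed. At 18 µg 2 of 15 were called lower, beside 1.43% of all expressed genes. At 54 µg 1 was called higher (0.219% of all genes). At 162 µg 1 was called higher and 1 lower (3.32% and 3.53%). Gadd45g, the paralog of Gadd45a, was higher by 1.16 (limma adjusted p = 0.0342) at 54 µg and 1.74 (limma adjusted p = 1.78e-04) at 162 µg, with every mouse at these doses above every control, while Gadd45a had -0.42 and -0.30. Such a separation was found for 1.51% and 3.71% of all expressed genes at these doses. Gadd45b had 0.64 at 162 µg (limma adjusted p = 0.0865). Bok, a relative of Bax, was called lower, with -0.62 (limma adjusted p = 0.0487) at 18 µg and -0.66 (limma adjusted p = 0.0150) at 162 µg, and so was the BH3-only gene Bmf, with -0.62 (limma adjusted p = 0.0230) at 18 µg. The calls of Gadd45g at 54 µg, Bok at 18 µg and 162 µg and Bmf were lost on leaving out any of 10, 19, 2 and 5 mice. They were also lost in 6, 11, 6 and 7 of 15 other settings of the processing. Over all mice left out in turn the values were, in the same order, 1.08 to 1.31, -0.73 to -0.54, -0.72 to -0.60 and -0.68 to -0.54. Cdkn1c, another cyclin-dependent kinase inhibitor, was higher at 162 µg than at 18 µg by 1.14 (limma adjusted p = 0.0168), and Gadd45g by 1.04 (limma adjusted p = 0.00416). For Sesn3 the difference was -0.75 (limma adjusted p = 0.0116). In this comparison 2 of 15 were thus called higher and 1 lower, beside 3.33% and 1.65% of all expressed genes.

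The samples are whole lung, so fewer cells of a type and less RNA per cell cannot be told apart, and marker lists are given beside the changes. Type II alveolar, club and endothelial markers were present in every mouse, with mean log2 ratios of at least 5.15, 5.52 and 4.47. The mean log2 ratio of the 7 neutrophil markers in exposed mice was 2.27 to 2.80, 2.17 to 3.20 and 2.12 to 4.42 at the 3 doses. At 162 µg 6 of 7 were higher than in controls, with a median log2 fold change of 0.64. Limma called 0 of 7 at any dose (1, 0 and 2 of 7 at an unadjusted p under 0.05). These controls include control replicate 2, which raises the control level, and marker fold changes without it are not given. The other controls had 1.86 to 2.45. In lavage fluid the authors counted more neutrophils than in controls at every dose, most at the highest. Control replicate 2, with the highest neutrophil marker level of all mice (4.60), had the highest control values of Cdkn1a (0.34), Sesn2 (0.39) and Trp53inp1 (1.55). It was also the highest control for Mdm2 (0.13), Bax (-0.55) and Gadd45a (-1.47), and the lowest for Ccng1 (-0.88), Bbc3 (-0.37) and Phlda3 (-0.53). This mouse thus stood at an end of the control range for all members but Gdf15, in both directions.

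At 162 µg 2 of 4 B cell and 1 of 5 T cell markers were called lower, beside 3.53% of all expressed genes. So were 1 of 4 ciliated cell and 1 of 2 club cell markers. Called higher were 1 of 7 alveolar macrophage and 1 of 6 type II alveolar markers, beside 3.32% of all expressed genes. Of the alveolar macrophage markers 1 was also called higher at 18 µg, beside 0.633% of all expressed genes. At 18 µg the mean log2 ratio of the 4 ciliated cell markers was 1.38 to 3.68, against 3.33 to 3.87 in controls. Here 4 of 4 markers were lower, with a median log2 fold change of -0.99. Limma called 0 of them, where 1.43% of all expressed genes were called lower. At an unadjusted p under 0.05 there were 3 of 4, beside 22.3% of all expressed genes. The part of these cell types in the changes of the 10 genes was not tested.

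**Figure D5:**
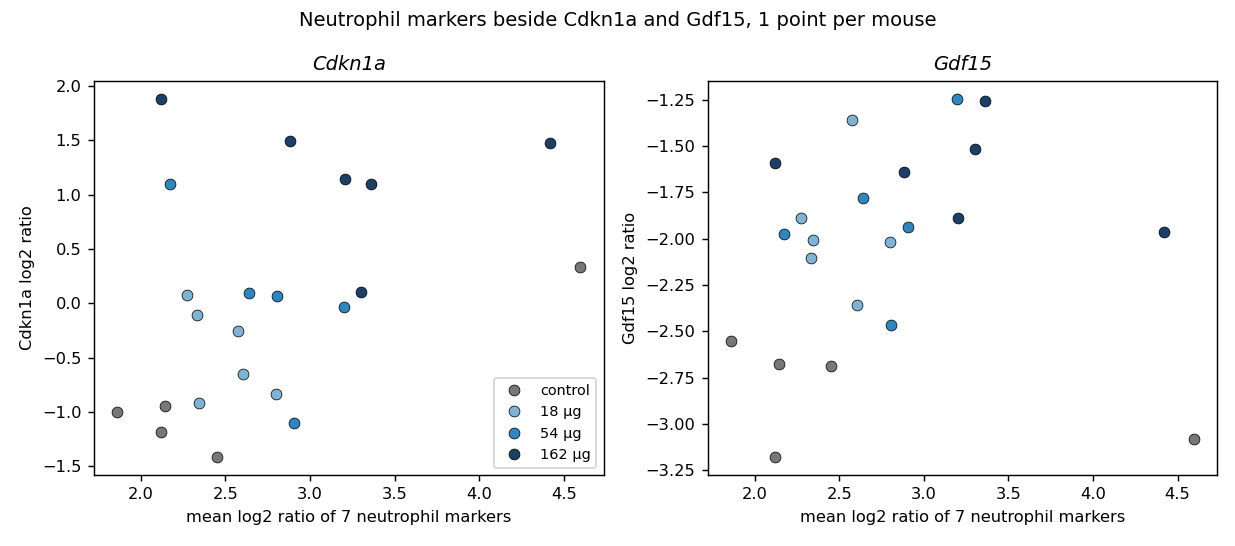
Log2 ratio of Cdkn1a (left) and Gdf15 (right) in single mice (y axis) beside the mean log2 ratio of 7 neutrophil markers (x axis), coloured by dose. Control replicate 2 lies at 4.60, far to the right of the other controls, with a high Cdkn1a (0.34) and a low Gdf15 (-3.08).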

How the data were processed

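Lung RNA (Cy5) and reference RNA (Cy3) of 22 mice were hybridised to 2-colour Agilent arrays without a dye swap. The authors deposited scanner files (written by Feature Extraction 10.7.3.1) with the intensity of each spot, and a log2 table that was used as an alternative. Median intensities were normalized by loess (span 0.3) in limma 3.58.1 under R 4.3.3, outlier spots were left out and replicate spots were combined by their median. A probe was expressed where Cy5 exceeded the trimmed mean plus 3 SD of 308 negative control spots in 80% or more of a group’s arrays. Probes were named through RefSeq accessions (26413 of 55681 probes), and the brightest probe stood for a gene. The fit had dose and slide, with Benjamini-Hochberg adjustment over 55681 probes. Group means are not adjusted for slide, and fold changes are. In simulated data 95.5%, 93.5% and 95.5% of 200 changed probes were recovered at 18, 54 and 162 µg. The simulated log2 change was 1.5. Most changes described above were smaller than this, and the recovery of smaller changes was not tested. The members and lists were chosen with earlier results of these data known. Members, list genes called at any dose and p53 are named, with other list genes stated as such. Normalization, background correction, filters, slide terms, the samples fitted and each mouse were varied. Of the genes most like Gdf15, 1 is not reported here.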

Additional observations from a re-analysis of the deposited data

Results flagged for a closer look

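Among 40 groups of values, 10 genes in 4 dose groups, 4 held a sample far from the others, where chance gives about 1 in 20. They were Cdkn1a in control replicate 2 (0.34), Mdm2 in 54 µg replicate 3 (-0.66), Trp53inp1 in 54 µg replicate 3 (1.24) and Gadd45a in control replicate 3 (-1.87), all log2 ratios. The dose groups differed from each other in a direct test for Cdkn1a, higher at 162 than at 18 µg by 1.52 on the log2 scale, and for Trp53inp1, higher by 0.93.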

How the results depend on the processing

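The alternatives for the list counts were chosen after seeing the data. Counts called at 18, 54 and 162 µg were 2, 1 and 2 for the 10 genes, 0, 1 and 6 for the other p53 targets and 5, 1 and 7 for the other lists. With normexp the 10 genes gave 0 at 54 µg and the other lists 3 at 18 µg. With median centring the counts were 1, 0 and 1 for the 10 genes, 0 at 54 and 162 µg for the other targets and 0, 0 and 1 for the other lists, and log2 fold changes that changed sign were -0.16 (Cdkn1a), -0.29 (Bax), -0.24 (Sesn2) and -0.27 (Phlda3) at 18 µg and -0.23 (Mdm2) and -0.030 (Bax) at 162 µg. Without normalization all these counts and the 2 differences between doses were 0, with -0.32 (Cdkn1a), -0.45 (Bax), -0.40 (Sesn2) and -0.42 (Phlda3) at 18 µg, 0.046 (Mdm2) at 54 µg and -0.24 (Mdm2), -0.045 (Bax) and -0.014 (Phlda3) at 162 µg. Over all 16433 expressed named genes, 103, 3 and 315 were called at the 3 doses with median centring, and 2, 0 and 5 without normalization. With quantile normalization the 10 genes gave 0 at 18 and 54 µg and the other lists 1 and 0, with Sesn2 at -0.012 at 54 µg and Trp53inp1 at 0.036 at 162 µg. With Cy5 alone the 10 genes gave 1 and the other lists 0 at 18 µg, with Sesn2 at -0.12 at 18 µg, Mdm2 0.057, Ccng1 0.0088 and Sesn2 -0.010 at 54 µg and Trp53inp1 0.13 at 162 µg. The deposited table gave 1 and 0 for the 10 genes at 18 and 54 µg, 0 and 3 for the other targets at 54 and 162 µg and 0, 0 and 3 for the other lists, with Phlda3 at -0.13 at 54 µg and Mdm2 at -0.027 at 162 µg. Without the slide term the 10 genes gave 1 and 0 at 18 and 54 µg and the other lists 2 at 18 µg, with Sesn2 at -0.079, Mdm2 at -0.018 and Trp53inp1 at 0.064. With slide as a random block the other targets and the other lists each gave 2 at 54 µg, with Sesn2 at -0.038 and Trp53inp1 at 0.034. In fits of 2 groups only the 10 genes gave 1 and 2, the other lists 1 and 3 at 18 and 54 µg and the other targets 3 at 54 µg, with Sesn2 at -0.058 at 18 µg and Trp53inp1 at 0.022 at 162 µg.

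Leaving out each mouse in turn gave 0 to 2, 0 to 2 and 2 to 3 called for the 10 genes, 2 to 2 between doses, 0 to 1, 0 to 2 and 3 to 7 for the other targets, and 0 to 12, 0 to 2 and 6 to 8 for the other lists. Small values that changed sign ranged from -0.033 to 0.30 (Sesn2, 18 µg), -0.025 to 0.25 (Bax, 54 µg), -0.10 to 0.17 (Sesn2, 54 µg) and -0.13 to 0.096 (Trp53inp1, 162 µg). Same-numbered mice of different groups correlated from -0.17 to 0.62 (median 0.17, 31 pairs) and differently numbered ones from -0.52 to 0.54 (median -0.056). Some same-numbered pairs were negative and no label ties a number to a shared litter, batch or day, so the mice were not treated as paired. With the replicate block added to slide the 10 genes gave 0 at 54 µg and 1 at 162 µg, the other targets 1, 0 and 2 and the other lists 3, 0 and 4, with Cdkn1a at -0.15 at 18 µg and Ccng1 0.10 and Sesn2 -0.18 at 54 µg. With the replicate block without slide the other targets gave 1 and 2 and the other lists 2 at 54 µg, with Sesn2 at -0.079. The causes were not tested. The call of Cdkn1a at 162 µg was lost without normalization (1.30, limma adjusted p = 0.259) and with the replicate block added to slide (1.31, limma adjusted p = 0.0994). That of Trp53inp1 at 18 µg was lost in 5 of 15 settings and that of Gdf15 in 4 at 18 µg, 7 at 54 µg and 2 at 162 µg. The number of arrays limits the precision.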
